A study of Mus musculus with 22 samples.

Results

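Transcripts of 41 genes known from heart muscle were followed across 22 arrays of mouse spinal cord, out of 18193 genes with 1 symbol in the platform annotation. The 41 were taken from a list of cardiac genes, and each is represented by the probe set with the highest mean signal over the arrays. That mean includes the 48 h arrays, so the rule can favour a probe set that is high on them. The changes and calls at 48 h may therefore be biased upward. A choice of probe sets from the sham arrays alone was not tested. The list was chosen by the log2 changes that these same arrays showed at 48 h, so the 48 h values below are a description and carry no p for a member. All 41 were measured and no filter on low values was applied.

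The cord came from C57Bl/6 wild-type mice of 10 to 12 weeks whose aorta had been clamped for 7.5 min, or that had undergone sham surgery. The cord was divided at T6, and RNA of the rostral and of the caudal piece went onto arrays of their own. Groups comprised sham rostral (4 arrays), sham caudal (3), clamp 24 h rostral (3), clamp 24 h caudal (3), clamp 48 h rostral (4) and clamp 48 h caudal (4). All groups shared strain and genotype and received no drug or transgene that the labels name; whether an array is 1 animal is not stated, so a p-value here reflects only how much these samples vary, and that may be technical. Rostral array 276 has no group, since its labels give both 24 h and 48 h. Arrays are called by the number in their titles.

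A heart muscle cell shortens when myosin heads of the thick filament pull on actin of the thin filament. Calcium that leaves the sarcoplasmic reticulum through the ryanodine receptor binds troponin and starts the cycle, and a pump regulated by phospholamban takes the calcium back. Atrial and ventricular muscle use different myosin light chains, and atrial muscle is the main source of natriuretic peptide in the adult. Spinal cord has no striated muscle of its own. Some of the 41 genes nevertheless serve neurons or glia, among them the calcium pump Atp2a2 and the ryanodine receptor Ryr2.

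Values are log2 RMA signals deposited by the authors, so a difference of 1 is a doubling. Array medians lay between 6.79 and 6.88. The labelled tissue was borne out by the neuronal gene Snap25, at 12.36 to 13.63 on all arrays, and the myelin gene Mbp, at 14.32 to 14.61. Caudal array 271 stood apart: it correlated with the other arrays at a median of 0.912, its values were compressed (SD 2.05), and 10.3% of all genes were at least 2-fold above sham on it. Caudal arrays 274 and 280 had a lower 5-prime than 3-prime Gapdh signal (differences of -1.05 and -0.68). The arrays numbered 283 went against their region labels, with the caudal patterning gene Hoxc10 at 5.67 on caudal 283 and 10.14 on rostral 283. Counts are given with and without these arrays where they enter. The numbers run in blocks by group, so an effect of their order and of the treatment cannot be told apart.

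In rostral cord at 48 h, 32 of the 41 genes were called higher than sham and 0 lower, beside 0.467% of all genes called higher and 0.143% called lower (limma with Benjamini-Hochberg adjustment over all genes, adjusted p under 0.05). The arrays of both groups did not overlap for 36 of the 41, all higher, beside 4.63% of all genes higher and 7.46% lower. The median difference of the 41 was 2.48, against -0.02 for all genes tested. The 41 supplied the 10 largest rises among all genes, 25 of the 50 largest, and 32 of the 85 genes called higher. Because the list was chosen with these changes known, the ranks and counts only describe it and lend it no support. In a tissue extract, a change in the number of cells of a type and a change in RNA per cell cannot be told apart. Neither can be told apart here from heart tissue or RNA carried over into a sample, which was not tested. Omitting any 1 array left between 30 and 35 called, and omitting caudal arrays 271, 274 and 280 together left 35, because the spread is pooled over all groups.

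**Figure D1:**
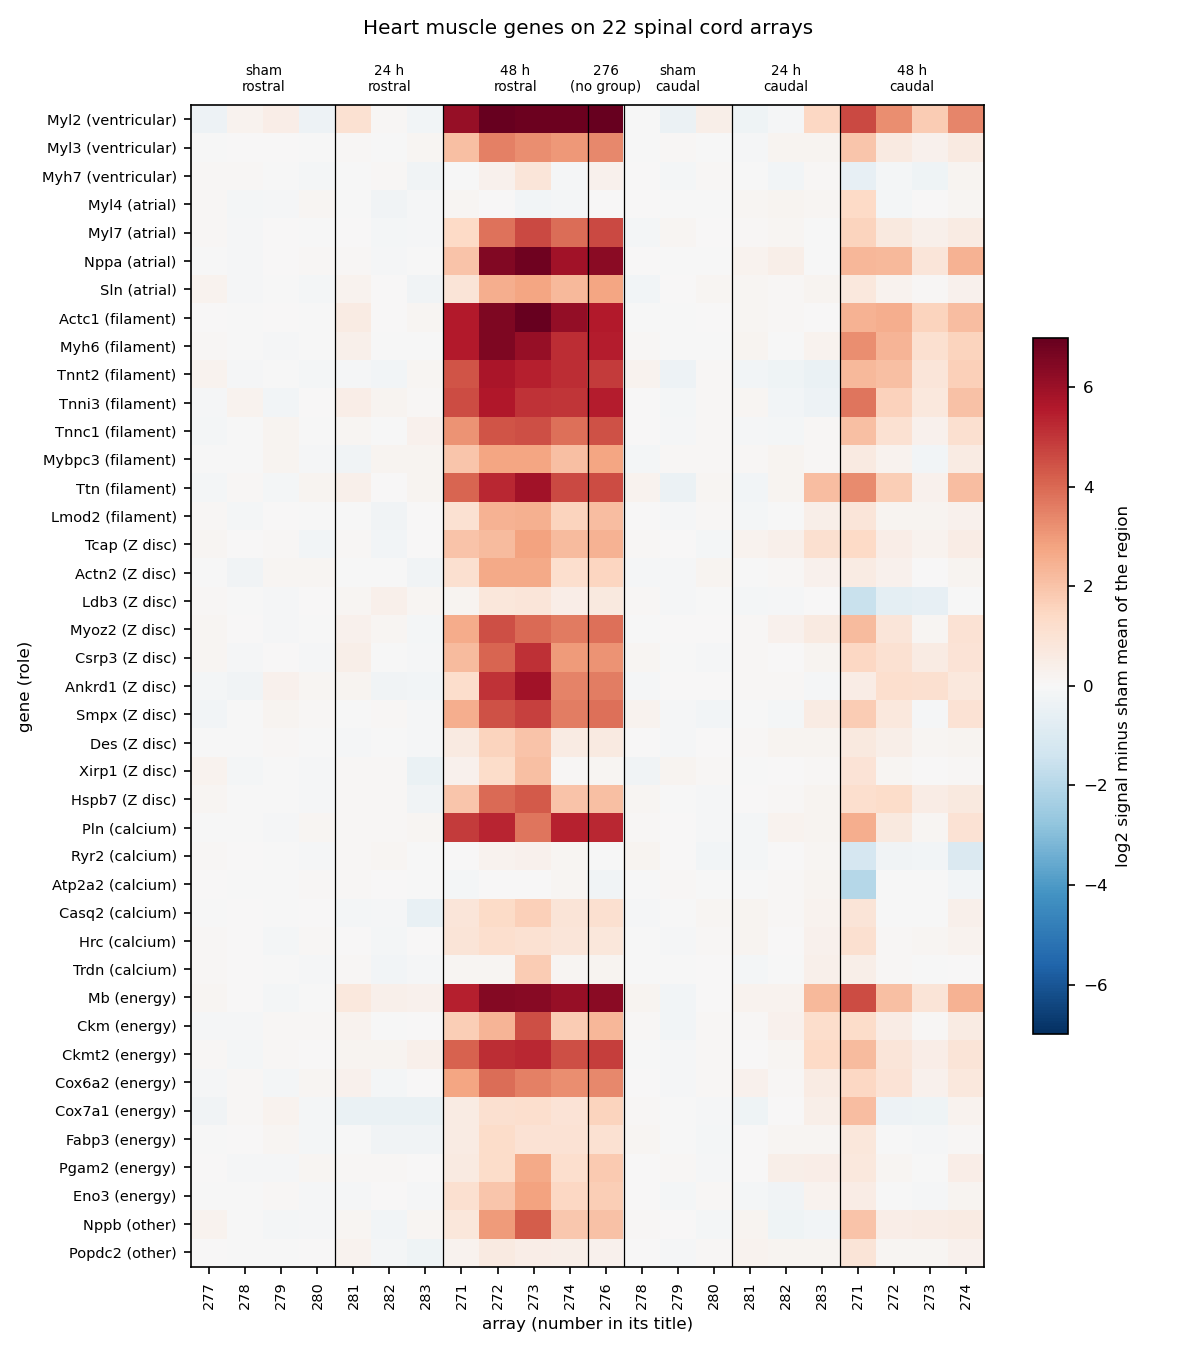
Log2 signal of each of the 41 genes (vertical axis, with its role) minus the sham mean of its region on each of 22 arrays (horizontal axis, in groups), from blue (lower) to red (higher). Red fills the 4 rostral 48 h arrays and array 276 for most genes, is paler on the caudal 48 h arrays, and is near 0 on sham arrays; Atp2a2, Ryr2 and Myl4 stay near 0 on the rostral arrays.

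Of the 3 ventricular genes 2 were called higher. Myl2 (probe set 1448394_at), the regulatory light chain of ventricular myosin, read 5.67, 6.23, 6.45 and 5.66 on the sham rostral arrays 277, 278, 279 and 280. On the rostral 48 h arrays 271, 272, 273 and 274 it read 12.09, 13.08, 12.87 and 12.89. The groups were far apart, and the difference of 6.73 ± 0.47 (SE, n = 4 and 4), or 106-fold, was the largest of the 41. Myl3, the essential light chain of ventricular and slow muscle myosin, read 6.88, 6.92, 6.95 and 6.87 in sham and 9.01, 10.44, 10.14 and 9.93 at 48 h, a difference of 2.98 ± 0.28. Its other probe sets differed by 5.39 and 2.64, so the size depends on the probe set while the direction does not. Myh7, the slow myosin heavy chain that prevails in the adult ventricle of large mammals and in slow skeletal muscle, but not in the adult mouse ventricle, read 7.53, 7.49, 7.39 and 7.32 in sham and 7.39, 7.74, 8.30 and 7.37 at 48 h. Those groups overlapped, and the difference of 0.27 ± 0.18 was not called.

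Of the 4 atrial genes, 3 were high on rostral 48 h arrays 272, 273 and 274 and much lower on 271. Nppa (1456062_at), the precursor of atrial natriuretic peptide, read 5.18, 5.09, 5.21 and 5.27 in sham rostral cord. At 48 h it read 7.20 on array 271, then 11.67, 12.00 and 11.04 on 272, 273 and 274, a difference of 5.29 ± 0.67. Myl7, the regulatory light chain of atrial myosin, read 4.76, 4.58, 4.74 and 4.69 in sham and 6.06, 8.48, 9.34 and 8.60 at 48 h, a difference of 3.43 ± 0.44. Sln, an inhibitor of the calcium pump that is rich in atrium, read 4.97, 4.63, 4.69 and 4.60 in sham and 5.61, 7.26, 7.50 and 7.01 at 48 h, a difference of 2.13 ± 0.27. Its other probe set (1420883_at) differed by 0.01. None of these 3 genes overlapped between groups. Myl4, the essential light chain of atrial myosin, differed by -0.04 ± 0.21 on the probe set that the rule takes (1457126_at) and by 2.35 on its other probe set (1422580_at). Its value therefore turns on the probe set.

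The 8 genes of the thick and thin filaments were all called higher, with a median difference of 5.0. Actc1, cardiac actin, read 5.24, 5.16, 5.22 and 5.20 in sham and 10.78, 11.75, 12.24 and 11.33 at 48 h, a difference of 6.32 ± 0.23. Myh6, the myosin heavy chain of the adult mouse heart in atrium and ventricle, read 4.4, 4.29, 4.23 and 4.28 in sham and 9.84, 10.82, 10.40 and 9.47 at 48 h, a difference of 5.83 ± 0.33. For both, the lowest 48 h array was over 5 log2 units above the highest sham array. The cardiac troponins followed: Tnnt2, which anchors the complex to tropomyosin, differed by 5.17 ± 0.27. Tnni3, the inhibitory subunit specific to heart, differed by 5.05 ± 0.39, and Tnnc1, the calcium-binding subunit of heart and slow muscle, by 3.98 ± 0.29. Titin (Ttn), the elastic protein that spans the half-sarcomere, differed by 4.95 ± 0.52. Mybpc3, cardiac myosin-binding protein C, differed by 2.40 ± 0.19, and Lmod2, which elongates thin filaments, by 1.88 ± 0.24.

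**Figure D2:**
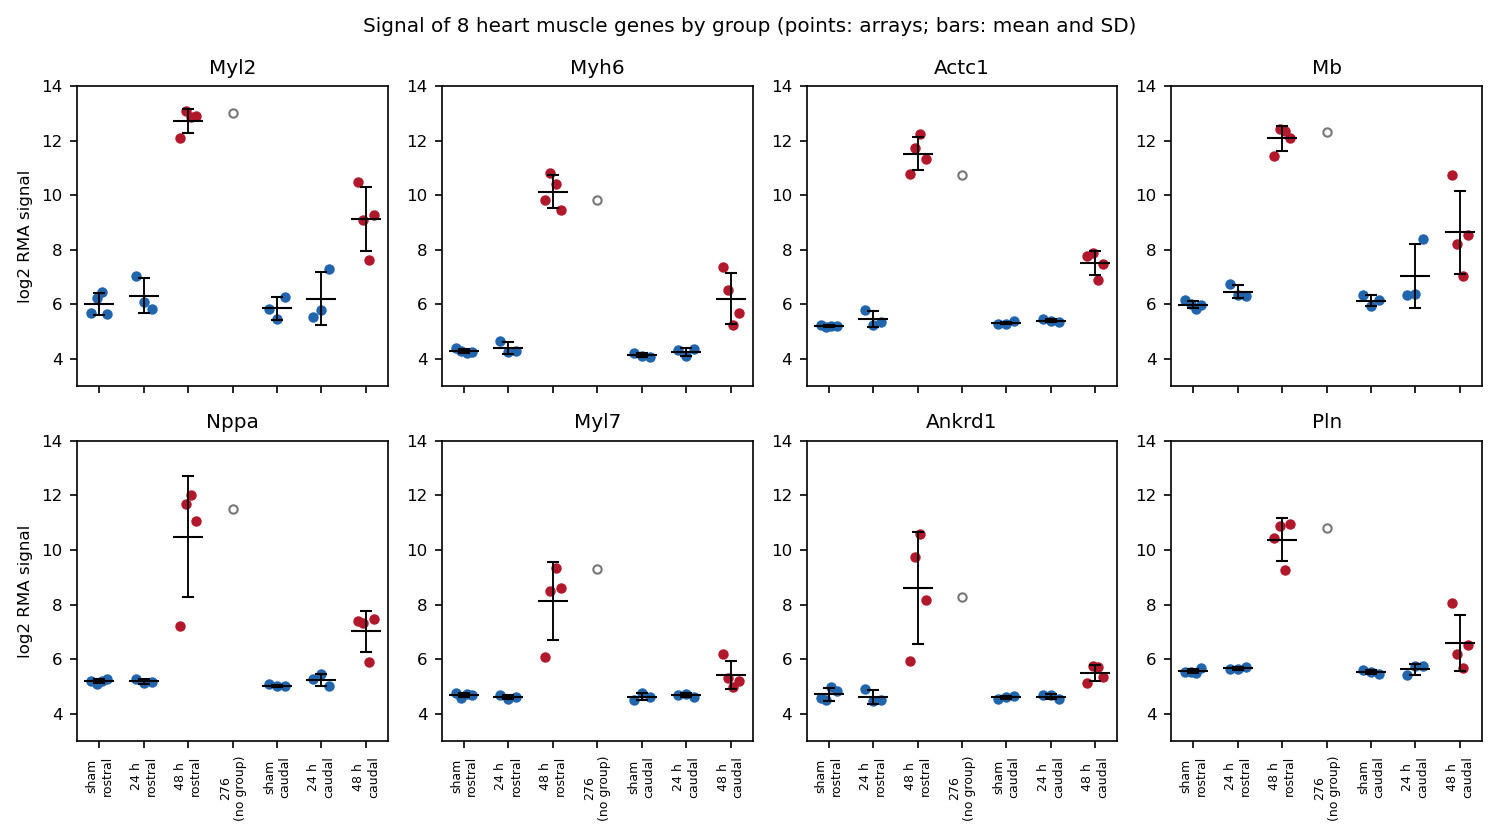
Log2 RMA signal (vertical axes) of 8 genes by group (horizontal axes); points are arrays, dashes and bars are the group mean and SD, and the open circle is array 276, which has no group. Red points are 48 h arrays. Myl2, Myh6, Actc1, Mb and Pln are high on all 4 rostral 48 h arrays, while Nppa, Myl7 and Ankrd1 have 1 rostral 48 h array, 271, at 7.20, 6.06 and 5.93, below the rest.

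The stretches around the start sites of Myh6, Nppa, Myl7 and Ankrd1 are shown because these genes were all high on arrays 272, 273 and 274 but came apart on array 271, where Myh6 was high and the others low. RefSeq lists a window of 300 bases, from 250 before to 50 after the start, for 35 of the 41 genes. They are written 5′ to 3′ on the strand of the gene, in build GRCm38.p6, at chr14:54966558-54966857 (minus strand), chr4:148000472-148000771 (plus), chr11:5898733-5899032 (minus) and chr19:36119795-36120094 (minus). Capitals mark matches on either strand to the TATA box, searched as TATAAA, the GATA site, searched as AGATAA, the MCAT element, searched as CATTCC, the MEF2 site or the CArG box, which did not overlap one another in these windows.
Myh6: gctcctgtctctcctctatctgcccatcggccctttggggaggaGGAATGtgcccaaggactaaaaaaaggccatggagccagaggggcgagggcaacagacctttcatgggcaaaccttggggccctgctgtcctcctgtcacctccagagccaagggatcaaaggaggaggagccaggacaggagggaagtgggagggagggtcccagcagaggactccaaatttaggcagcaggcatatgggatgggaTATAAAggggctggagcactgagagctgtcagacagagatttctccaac
Nppa: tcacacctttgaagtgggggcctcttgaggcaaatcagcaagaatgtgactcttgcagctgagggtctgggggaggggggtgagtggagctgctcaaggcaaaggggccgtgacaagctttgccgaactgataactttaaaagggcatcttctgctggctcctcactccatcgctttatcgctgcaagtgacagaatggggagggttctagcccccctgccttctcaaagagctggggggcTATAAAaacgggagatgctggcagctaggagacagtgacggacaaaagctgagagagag
Myl7: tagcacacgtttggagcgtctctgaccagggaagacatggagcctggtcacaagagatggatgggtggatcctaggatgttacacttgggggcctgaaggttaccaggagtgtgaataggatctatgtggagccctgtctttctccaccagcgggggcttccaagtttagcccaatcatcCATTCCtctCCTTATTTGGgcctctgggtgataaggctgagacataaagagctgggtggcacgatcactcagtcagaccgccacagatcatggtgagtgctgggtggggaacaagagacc
Ankrd1: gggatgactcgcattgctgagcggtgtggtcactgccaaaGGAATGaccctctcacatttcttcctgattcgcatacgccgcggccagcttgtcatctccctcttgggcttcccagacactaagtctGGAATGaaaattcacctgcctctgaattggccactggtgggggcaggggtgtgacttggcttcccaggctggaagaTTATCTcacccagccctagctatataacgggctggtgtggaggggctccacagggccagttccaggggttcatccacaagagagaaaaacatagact
The Myh6 window holds TATAAA and 1 match to the MCAT letters, and the Nppa window holds TATAAA alone of the letters searched. Counted from the listed start, TATAAA begins at base 2 in Myh6 and at -9 in Nppa. Myl7 holds an MCAT match close to a CArG box, and Ankrd1 holds a GATA site and a pair of MCAT matches. The search for AGATAA does not cover TGATAA, which the Nppa and Myl7 windows hold. Over the 35 windows, CATTCC was in 13 (37.1%), against 14.6% of the windows of 27025 genes. AGATAA was in 9 (25.7%, against 11.4%), the MEF2 site in 5 (14.3%, against 3.26%), the CArG box in 4 (11.4%, against 1.57%) and TATAAA in 5 (14.3%, against 14.2%). These are matches of letters only, not sites shown to be bound.

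Of the 10 genes of the Z disc and its surroundings, 8 were called higher and the median difference was 2.68. Ankrd1, a stretch-responsive protein of the titin complex, read 4.56, 4.48, 5.0 and 4.84 in sham and 5.93, 9.75, 10.60 and 8.17 at 48 h, a difference of 3.89 ± 0.60. Array 271 was again the low one. Smpx, a small muscle protein, differed by 3.83 ± 0.38, Myoz2, which tethers calcineurin to the Z disc, by 3.66 ± 0.35, and Csrp3, muscle LIM protein, by 3.60 ± 0.39. Hspb7, a small heat shock protein of heart, differed by 3.05 ± 0.38. Tcap, which caps titin, differed by 2.32 ± 0.22, Actn2, the actin cross-linker of the disc, by 1.90 ± 0.27, and desmin (Des), the muscle intermediate filament, by 1.18 ± 0.22. Ldb3 did not overlap between groups, yet its difference of 0.58 ± 0.21 was not called. Xirp1, a repeat protein of intercalated discs, read 5.20, 6.23, 7.02 and 4.99 at 48 h against 5.18, 4.76, 4.89 and 4.85 in sham, so the groups overlapped and the difference of 0.94 ± 0.32 was not called.

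Genes of calcium handling split. Pln, phospholamban, read 5.53, 5.53, 5.49 and 5.67 in sham and 10.43, 10.88, 9.28 and 10.93 at 48 h, a difference of 4.83 ± 0.37. Here array 273 was the lowest and 271 was among the others, the reverse of Nppa and Ankrd1. Casq2, the cardiac calcium buffer of the reticulum, differed by 1.19 ± 0.19 and Hrc, another calcium-binding protein there, by 1.0 ± 0.17. The Casq2 probe set has the suffix that Affymetrix gives to sets shared by several transcripts. Ryr2, the release channel, read 9.44, 9.37, 9.31 and 9.28 in sham and 9.36, 9.61, 9.67 and 9.51 at 48 h, and Atp2a2, the pump, read 12.90, 12.87, 12.83 and 12.95 in sham and 12.77, 12.91, 12.93 and 13.01 at 48 h. Both groups overlapped for these genes, whose signal was already high in sham cord, and the differences of 0.19 ± 0.17 and 0.02 ± 0.28 were not called. Trdn, which links the release channel to calsequestrin, read 5.89, 5.91, 7.56 and 5.90 at 48 h against 5.86, 5.81, 5.76 and 5.71 in sham. Its difference of 0.53 ± 0.26 was not called and came from array 273. Another probe set of Trdn (1451801_at) differed by 1.83.

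Of the 8 genes of energy supply, 7 were called higher, with a median difference of 2.21. Mb, myoglobin, read 6.15, 6.00, 5.84 and 5.97 in sham and 11.42, 12.44, 12.35 and 12.11 at 48 h, a difference of 6.09 ± 0.54. Another probe set of Mb (1422420_at) differed by -0.11. Its mean over all arrays was 6.66, against 8.09 for the probe set used, whose rostral sham mean was 5.99. Ckmt2, the mitochondrial creatine kinase of muscle, differed by 4.78 ± 0.32 and Cox6a2, a muscle form of a cytochrome oxidase subunit, by 3.36 ± 0.22. Ckm, the cytosolic creatine kinase of muscle, read 6.00, 6.02, 6.19 and 6.21 in sham and 7.83, 8.50, 10.64 and 7.86 at 48 h, a difference of 2.60 ± 0.43. Array 273 was over 2 log2 units above the next. Eno3, muscle enolase, differed by 1.82 ± 0.24, Pgam2, muscle phosphoglycerate mutase, by 1.44 ± 0.28, and Fabp3, a fatty acid binding protein, by 0.98 ± 0.16. Cox7a1 did not overlap, but its difference of 0.97 ± 0.37 was not called. Of the remaining pair, Nppb, the precursor of B-type natriuretic peptide, differed by 2.48 ± 0.48, and Popdc2, a membrane protein of heart and muscle, by 0.44 ± 0.14, which was not called. Leaving out single arrays ended the call for Des, Nppb or Pgam2: Des and Nppb without rostral 272, Des and Pgam2 without sham rostral 277, Nppb and Pgam2 without sham rostral 278 or 279, and Nppb without sham rostral 280.

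Of the 41 genes, 18 have over 1 probe set, which adds 35 further sets. In rostral cord at 48 h, 31 of the 35 had the sign of the one used, 14 were at least 2-fold higher and 17 lay within 0.5 of no change. Among the last were sets of genes called on the set used: Sln (0.01), Des (0.004), Ckm (0.02), Fabp3 (0.04) and Mb (-0.11).

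In caudal cord at 48 h, 37 of the 41 genes had a mean above sham, and Ldb3, Ryr2, Atp2a2 and Myh7 had one below. The call was made for 10 as higher and 2 as lower, beside 5.52% of all genes called higher and 7.02% called lower. Without overlap between groups, 24 were higher and 0 lower, beside 8.9% and 11.1% of all genes, and the median difference was 0.66. Myl2 read 5.85, 5.45 and 6.28 on the sham caudal arrays 278, 279 and 280, and 10.48, 9.09, 7.63 and 9.29 on the 48 h arrays 271, 272, 273 and 274, a difference of 3.26 ± 0.51 (SE, n = 4 and 3). Mb read 6.34, 5.93 and 6.15 in sham and 10.73, 8.22, 7.05 and 8.55 at 48 h, a difference of 2.50 ± 0.58. In both genes array 271 was the highest and 273 the lowest. Of the 41 genes, 33 had their highest caudal 48 h signal on array 271 and 32 their lowest on array 273. The other genes called higher were Actc1 (2.19), Myh6 (2.07), Tnni3 (2.04), Ttn (1.87), Tnnt2 (1.72), Tnnc1 (1.16), Ckmt2 (1.11) and Cox6a2 (0.87), which places 6 of the 10 in the filament group. No atrial gene was called with all arrays, but Nppa was without rostral 271 or caudal 273, and Myl7 was without rostral 271. Nppa read 7.38, 7.32, 5.90 and 7.48 at 48 h against 5.07, 5.02 and 5.0 in sham, without overlap and with a difference of 1.99 ± 0.72.

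The genes called lower in caudal cord were Ldb3 (-0.72 ± 0.23) and Ryr2 (-0.66 ± 0.19). Ryr2 read 9.45, 9.29 and 9.09 in sham and 8.09, 9.04, 9.10 and 8.24 at 48 h, low on arrays 271 and 274, which are those with unusual quality measures. Atp2a2 read 10.85 on caudal array 271, where Snap25 was also 1.11 below its sham mean, and 12.63 to 12.82 on the other 48 h arrays. Of the calls made, Ckmt2, Ldb3, Ryr2 and Ttn were lost without caudal array 271, Ldb3 and Ttn also without caudal 272, Tnnc1, Cox6a2, Ckmt2, Ldb3 and Ttn without any 1 sham caudal array, and Ryr2 without sham caudal 278 or 279; Ckmt2 and Ldb3 also lost theirs without several arrays of other groups. Counting both directions, 12 genes were called with all arrays (12.5% of all genes), 8 without caudal array 271, 18 without caudal 273, 17 without rostral 271, 6 without sham caudal 278 or 279 and 7 without sham caudal 280. Fitting these groups alone left 1 called, and counting array 276 as rostral 24 h left 2. Without caudal arrays 271, 274 and 280 together 8 were called and the median difference was 0.31. The 12.5% belongs to the fit with all arrays. The shares of all genes under these alternatives are not given here, so a general gain or loss of calls is not separated.

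The caudal minus rostral difference of the 48 h changes was negative for 40 of the 41 genes, with a median of -1.99, and was called for 18, all negative, beside 0.154% of all genes called negative. It was -4.13 ± 0.34 for Actc1, -3.76 ± 0.48 for Myh6, -3.74 ± 0.55 for Pln, -3.67 ± 0.48 for Ckmt2 and -3.47 ± 0.69 for Myl2. Within array numbers, the rostral difference from sham exceeded the caudal one in 41 of 41 genes for 272, in 40 for 273 and in 39 for 274. For number 271 it did so in 28, and the medians were alike, at 1.37 on each side. The count called was 27 without caudal array 271, 8 without sham caudal 278, 10 without sham caudal 279 or 280 and 11 without sham rostral 280. It was 10 with the compared groups fitted alone and 0 with array 276 counted as rostral 24 h. With the title number as a fixed replicate block it was 9, and as a random block 22. The 0.154% belongs to the main fit, and the shares of all genes under these alternatives are not given here.

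At 24 h no gene of the set was called in either region. In rostral cord 0 of 41 passed, beside 0% of all genes, and 0 of 41 had an unadjusted p under 0.05, against 0.781% of all genes (limma). Without overlap 4 were higher and 2 lower, beside 3.47% and 4.35% of all genes. The median difference was 0.01 and the extremes were -0.47 ± 0.39 for Cox7a1 and 0.47 ± 0.58 for Mb, each with an adjusted p of 1. The SEs of the 24 h comparisons are pooled over all groups, so they also hold the spread of the 48 h arrays. Within rostral cord Mb had SDs of 0.13 in sham and 0.23 at 24 h, and its arrays did not overlap. The lack of a call therefore does not exclude a difference of this size. In caudal cord 0 of 41 passed, beside 0.0055% of all genes, and 1 of 41, Tcap, had an unadjusted p under 0.05, against 2.90% of all genes. Without overlap 8 were higher and 0 lower, beside 8.65% and 10.5%. The median was 0.11. Myl2 read 5.54, 5.79 and 7.31 on the caudal 24 h arrays 281, 282 and 283, and 7.05, 6.10 and 5.82 on the rostral ones. Mb read 6.36, 6.37 and 8.41 on the caudal arrays, a difference from sham of 0.91 ± 0.62, and Ttn read 5.18, 5.54 and 7.53, a difference of 0.72 ± 0.60. Both were high on array 283 alone. On that array 6 of the 41 genes were at least 2-fold above sham, beside 0.181% of all genes: Myl2, Ttn, Tcap, Mb, Ckm and Ckmt2, while Nppa at 5.02 and Myh6 at 4.38 were close to sham. Without both arrays numbered 283, 0 genes were called in either region and the caudal median was 0.07.

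Caudal and rostral sham cord were compared in the same way. Of the 41, 0 passed for caudal against rostral sham, beside 0.335% of all genes, and 0 had an unadjusted p under 0.05, against 5.51% of all genes (limma). Without overlap 2 were higher in caudal sham (Actc1 and Eno3), beside 12.1% of all genes, and 7 lower (Nppa, Myh6, Myoz2, Des, Casq2, Cox7a1 and Popdc2), beside 8.67%. Fitting the sham groups alone called 2 of the 41, Casq2 and Cox7a1, both lower. The 0.335% belongs to the fit of all groups, and the share of all genes in the fit of sham alone is not given here. The median difference was -0.04. The largest were -0.44 ± 0.39 for Cox7a1 (adjusted p = 1) and -0.33 ± 0.20 for Casq2 (adjusted p = 0.965). The SE of a single gene, from 0.15 upward, is pooled over all 6 groups, so it also holds the spread of the 48 h arrays. Nppa had an SE of 0.72 here, beside SDs of 0.08 in rostral and 0.04 in caudal sham. The SE and adjusted p therefore do not tell how small a difference the sham arrays alone could have shown.

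The genes did not stand in 1 ratio on every array. For each gene the linear signal above its sham mean was expressed as a percentage of that on rostral array 272, which compares a probe set only with itself. Medians are over the 34 genes at least 2-fold above sham on array 272, a restriction chosen after the data were seen, because a gene with little excess there gives no usable ratio (Myl4, Trdn and Myh7 among them). On rostral array 271 the median was 38.3% (interquartile range 22.7% to 48.8%). There Myl2 stood at 49.8%, Myl3 at 31.3%, Mb at 48.9% and Pln at 72.3%, and the 8 filament genes ran from 24.2% (Lmod2) to 50.8% (Actc1). Nppa stood at 3.44%, Ankrd1 at 4.16%, Nppb at 10.5%, Myl7 at 12.4%, Xirp1 at 14.4% and Sln at 17.7%. These 6 genes, of atrial, Z disc and peptide roles, lay below every filament gene on this array. So did the Z disc genes Hspb7 (19.3%), Actn2 (22.4%), Csrp3 (22.6%), Smpx (22.8%) and Myoz2 (23.0%). The Z disc genes Des (29.2%) and Tcap (83.5%) did not, and Tcap lay above every filament gene. On rostral array 274 Myl2 stood at 87.8%, Nppa at 64.6% and Myl7 at 109%, around a median of 62.7%, while Xirp1 (3.40%), Hspb7 (21%), Actn2 (23.2%), Des (25.2%) and Ankrd1 (31.3%) were low. Other Z disc genes were higher on that array: Tcap stood at 103%, Myoz2 at 52.4%, Smpx at 52.3% and Csrp3 at 43.6%. On rostral array 273 the median was 114%; Ckm stood at 523%, Pgam2 at 362%, Nppb at 255%, Xirp1 at 222% and Eno3 at 215%, and Pln at 31.2%.

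On the caudal 48 h arrays the medians over the 34 were 17.2% (271), 4.75% (272), 1.28% (273) and 5.37% (274). On caudal 272 Myl2 stood at 5.67%, Nppa at 3.95%, the filament genes at 3.27% to 7.21% and Pln at 1.51%, while Fabp3, Cox7a1 and Eno3 were not above sham. On caudal 271 the filament genes ran from 5.31% (Actc1) to 30.03% (Tnni3), and Nppa stood at 4.17%.

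**Figure D3:**
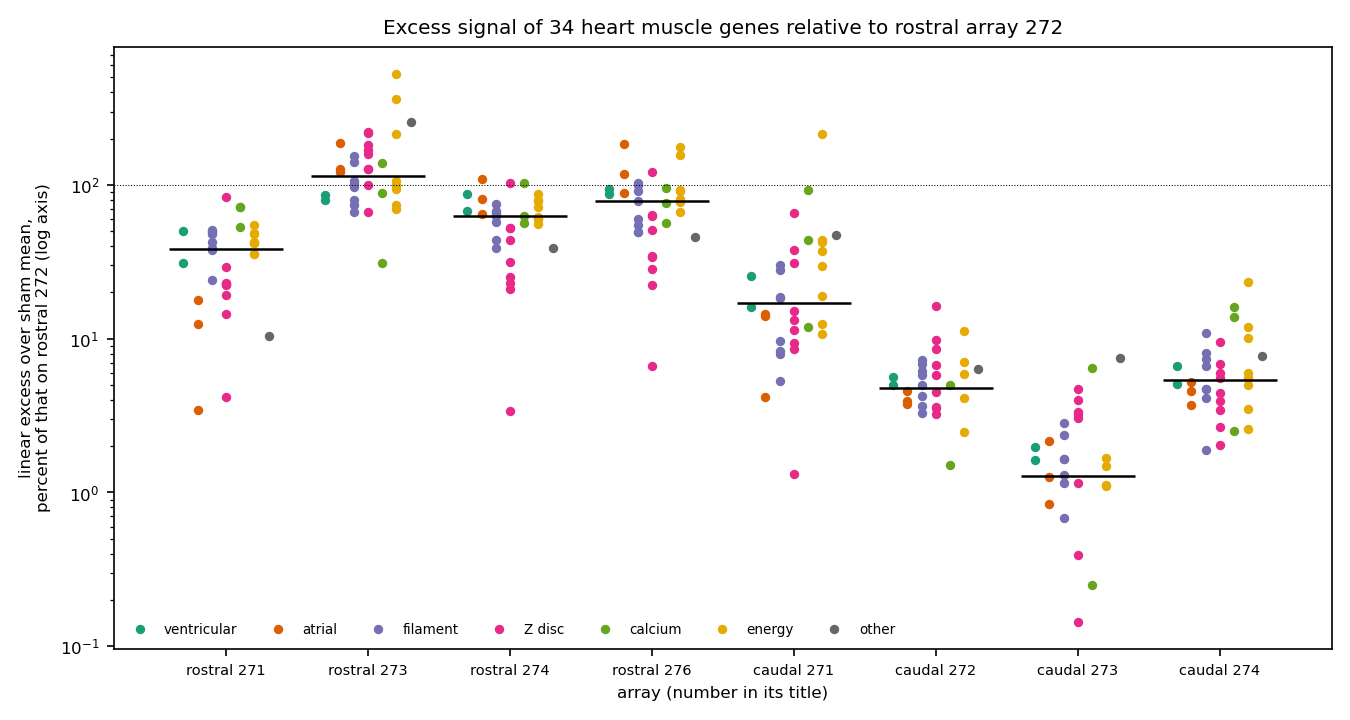
Linear signal above the sham mean as a percentage of that on rostral array 272 (vertical, log axis) on 8 arrays (horizontal), for the 34 genes that were at least 2-fold above sham on array 272. Each point is a gene coloured by role, black lines are medians over the 34, and genes with no excess are not drawn. Nppa (3.44%) and Ankrd1 (4.16%) lie at the bottom on rostral 271, energy genes reach 523% on rostral 273, and caudal 272, 273 and 274 lie mostly below 20%.

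Rostral array 276 carried the same genes at high signal. Its median difference from sham was 2.44, and 31 of the 41 genes were at least 2-fold above sham, beside 0.302% of all genes. Myl2 read 13.00, Nppa 11.50, Myl7 9.31, Actc1 10.73, Myh6 9.82, Mb 12.32 and Pln 10.81. Of the 41 genes, 37 lay above all 7 rostral sham and 24 h arrays, 35 lay within the range of the 4 rostral 48 h arrays, 2 above it and 4 below it. The shares of all genes in these positions are not given here, so the counts describe the array and set nothing apart for the 41. The values do not assign the array, and it stays out of every group. Counted as a 24 h rostral array it would move the 24 h median from 0.01 to 0.64.

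The rise was spread unevenly over single arrays. Of the 41 genes, 25, 34, 35 and 29 were at least 2-fold above sham on rostral arrays 271, 272, 273 and 274, beside 1.41%, 1.7%, 1.04% and 0.28% of all genes. On caudal arrays 271, 272, 273 and 274 the counts were 24, 12, 4 and 12, beside 10.3%, 3.73%, 2.63% and 1.32%. On the 7 sham arrays 0 genes of the set were 2-fold up, beside at most 0.044% of all genes, on caudal 280. On the 24 h arrays other than caudal 283 the only one was Myl2 on rostral 281, beside 0.011% of all genes there, 0.286% on rostral 283, 0.676% on caudal 281 and 0.11% on caudal 282.

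A further list of heart genes and one of genes tied to fatty acid use in heart were taken beside the 41. Of 25 further heart genes measured, 7 were called higher and 0 lower in rostral cord at 48 h, with a median of 0.22. Over all genes, 0.467% were called higher and 0.143% lower. They include the M-band proteins Myom2 (3.60 ± 0.38) and Myom1 (2.76 ± 0.20), the muscle ubiquitin ligase Trim63 (1.34 ± 0.22) and Cmya5 (1.16 ± 0.25). The cardiac transcription factors Nkx2-5, Gata4 and Tbx5 lay within 0.2 of sham on all 4 rostral 48 h arrays, and Tbx20 reached 0.34. Of 12 genes of fatty acid oxidation, 4 were called higher: the fatty acid transporter Cd36 (3.54 ± 0.25), the lipase Lpl (2.79 ± 0.19), Cox8b (2.43 ± 0.42) and Pdk4 (1.84 ± 0.36). In caudal cord at 48 h 0 of the further heart genes were called, with 2 at an unadjusted p under 0.05 (limma). The share of all genes at that unadjusted level was 34.3%. Of the second list, with a median of 0.09, Lpl (2.23), Pdk4 (1.61) and Cd36 (1.34) were called higher, beside 5.52% of all genes. Lpl was also called in caudal cord at 24 h (1.60), where no heart muscle gene was.

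Markers of other tissues moved on single arrays. Of 22 skeletal muscle genes, 15 were at least 2-fold up on rostral array 273 (median 2.70), with Acta1, skeletal actin, 5.66 above sham and fast troponin C, Tnnc2, 5.71 above. On caudal array 283, 9 of the 22 were (Acta1 by 3.13). The summed linear signal of this list was 1237 to 1293 in sham rostral cord, 1275 to 11043 at 48 h, 1191 to 1367 in sham caudal cord, 1391 to 2674 at 24 h and 1382 to 2573 at 48 h. These are the arrays on which Ckm, Pgam2, Eno3 and Trdn (rostral 273) and Mb, Ttn and Ckm (caudal 283) stood out. On rostral arrays 271, 272 and 274 and on 276, 0, 1, 0 and 0 of the 22 were 2-fold up, while Myl2 read 12.09, 13.08, 12.89 and 13.00 there. By limma 0 of the 22 were called in any comparison. At an unadjusted p under 0.05 there were 4 in rostral and 1 in caudal cord at 48 h and 0 at 24 h. The 48 h shares of all genes at that level were 7.08% in rostral and 34.3% in caudal cord.

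Of 9 liver genes, 0 were called in rostral cord at 48 h (3 at an unadjusted p under 0.05, beside 7.08% of all genes). On rostral array 272, 8 were 2-fold up, with albumin (Alb) 4.35 above sham, against 2, 0 and 0 on rostral 271, 273 and 274. The summed signal of this list was 416 to 438 in sham rostral cord and 418 to 2073 at 48 h, and 414 to 445 and 420 to 1320 in caudal cord. Of 8 adipocyte genes, Fabp4, which capillary endothelium and macrophages also express, was called higher in rostral cord (4.17 ± 0.90), and on caudal array 283 Adipoq stood 3.34 and Ucp1, the uncoupling protein of brown fat, 2.92 above sham. The summed signal of the adipocyte list was 410 to 478 in sham rostral cord and 513 to 1315 at 48 h, and 384 to 1743 in caudal cord at 24 h. On caudal array 271, which stands apart, the median of every list but the cord markers was above sham. The part of these tissues, or of array quality, in the values of the heart muscle genes was not tested.

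Smooth muscle genes were called for 0 of 8 in rostral cord at 48 h (3 at an unadjusted p under 0.05). In caudal cord 2 of 8 were called at 48 h, Mylk (1.21) and Tagln (0.94). Over all genes, 12.5% were called in caudal cord at 48 h (limma). At the unadjusted level the shares over all genes were 34.3% there and 7.08% in rostral cord. Whether any list exceeds these shares was not tested. Of the 8 lung, 4 red cell, 8 thymus and lymphocyte and 5 mesothelium genes, 0 were called in either region at 48 h, with 0 in rostral cord and 1, 2, 2 and 0 in caudal cord at an unadjusted p under 0.05. Of 9 liver genes 1, Fga, was called in caudal cord (3.55). Of 12 cord genes 0 were called in rostral cord (2 at an unadjusted p under 0.05), and in caudal cord the astrocyte gene Gfap was higher (0.77) and the neurofilament gene Nefl lower (-0.31).

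**Figure D4:**
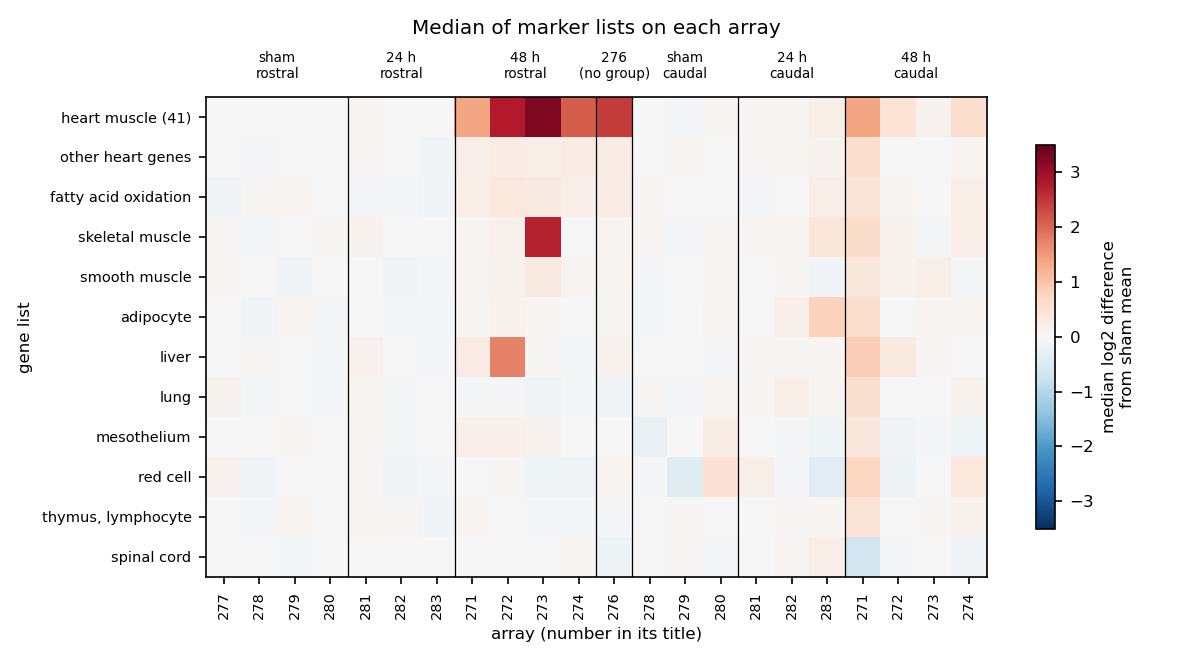
Median log2 difference from the sham mean of the region (colour) for the 41 heart muscle genes and 11 other gene lists (vertical) on each of 22 arrays (horizontal, in groups). The heart row is raised on rostral 271 to 274 and 276; the skeletal row is raised on rostral 273 (2.70), the liver row on rostral 272 (1.73), and nearly every row on caudal 271.

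Outside the 41, the genes whose signal followed their mean most closely over the 22 arrays (Pearson r, a description over arrays that share groups) were Myom1 (0.986), Tpm1 (0.977), Myom2 (0.977), Cd36 (0.965), Tmem182 (0.955), Asb11 (0.954), Mylk3 (0.943), Myzap (0.940), Trim63 (0.920) and Fhl2 (0.918). Of these, Tpm1 is a tropomyosin of the thin filament and Mylk3 the myosin light chain kinase of heart. Within the 41, r with the mean of the others ran from -0.12 for Atp2a2, 0.14 for Ryr2 and 0.15 for Myl4 up to 0.99 for Myl3, Tnnc1, Myoz2, Smpx, Cox6a2 and Ckmt2.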

How the data were processed

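Total RNA of rostral and caudal mouse spinal cord was hybridised to 22 Affymetrix Mouse430_2 arrays. The authors deposited log2 values from the RMA method that the submitters' processing notes name without a version; they were used unchanged. Of 45101 probe sets, 64 are controls, 34945 have a single symbol, 932 have several and 9160 have no listed one. Per gene the probe set with the highest mean over all arrays was kept (18193 genes). No array has a depth, so the number of arrays limits precision.

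A model of 6 group means were fitted to 21 arrays with limma 3.58.1 (R 4.3.3, statmod 1.5.0), with p-values adjusted over all genes by Benjamini-Hochberg, two-sided, called under 0.05. Array 276 entered no group. The 41 genes and all lists were chosen with earlier results of these data known. All 41 are named, with up to 4 called genes of each other list, the 10 most alike genes and examples of the cord list. Other genes named for single arrays were chosen after their values were seen. The fit was tested on simulated data. Promoter windows are from RefSeq (GRCm38.p6). The alternatives were the mean of probe sets, brighter genes only, centring, replicate blocks, compared groups alone, array 276 in either group, and arrays left out. Whether title numbers pair arrays was checked by correlations of deviations within a number. These were below 0 for 281, 282 and 283 (lowest -0.45) and from 0.09 to 0.53 for the others. The 24 h numbers include 283, whose region genes went against its labels, so the check does not settle the pairing. The numbers were not used as pairs.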

Additional observations from a re-analysis of the deposited data

Results flagged for a closer look

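In 6 of 126 sets of 4 arrays, 1 array lay far from the others of its group for a heart muscle gene; chance gives about 1 in 20 such sets. Trdn read 7.56 on rostral array 273. On caudal array 271, Lmod2 read 4.72, Xirp1 5.91, Nppb 8.28 and Atp2a2 10.85, the last far below the others. On caudal array 273, Nppa read 5.90, below the others.

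The 48 h change differed between regions by the limma interaction for 18 genes, each with a smaller change in caudal cord: Actc1 (-4.13), Myh6 (-3.76), Pln (-3.74), Ckmt2 (-3.67), Mb (-3.59), Myl2 (-3.47), Tnnt2 (-3.45), Tnni3 (-3.01), Smpx (-2.97), Tnnc1 (-2.82), Myoz2 (-2.62), Csrp3 (-2.58), Cox6a2 (-2.49), Mybpc3 (-2.09), Myl3 (-2.09), Sln (-1.79), Eno3 (-1.66) and Tcap (-1.66). The genes had been chosen with the 48 h changes known.

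Rostral array 276, which is in no group, had a median of 2.44 above sham over the 41 genes; the sham rostral arrays lay between -0.03 and 0.02 in median.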

How the results depend on the processing

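The medians at 48 h and of the region difference kept their sign under every alternative run, while counts of calls moved in caudal cord (12) and for the region difference (18). Among brighter genes alone, where 8 of the 41 were measured, members called were 5 in rostral cord at 48 h, 5 in caudal cord and 3 for the region difference, and the medians were 0.0519 for rostral 24 h and -0.0733 for the sham regions. Fitting the compared groups alone gave 1 gene called in caudal cord at 48 h, 10 for the region difference and 2, both lower, for the sham regions. Array 276 counted as rostral 24 h gave 2 called in caudal cord at 48 h, 0 for the region difference and a rostral 24 h median of 0.64. For Myl4 the mean of its probe sets turned the rostral 48 h difference from -0.04 to 1.15. The cause of each was not tested, and the shares of all genes called under the alternatives are not given here.

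Leaving out 1 array at a time gave 30 to 35 called in rostral cord at 48 h (median 2.15 to 2.89), 6 to 18 in caudal cord, where all arrays gave 12 (median 0.41 to 0.80), 8 to 27 for the region difference (median -2.24 to -1.57), and 0 for rostral 24 h (median -0.0319 to 0.0387), caudal 24 h (median 0.07 to 0.16) and sham regions (median -0.05 to -0.01). Correlations of deviations within a title number were 0.25 to 0.53 for the numbers 271 to 274. They fell to -0.45 for 283, whose region genes went against its labels. Not every number met the criterion for pairing, and the numbers were not taken as pairs. With the number as a fixed replicate block the region difference was called for 9 genes instead of 18, and a random replicate block (correlation 0.138) moved no count by over 1.5 times. The number of arrays limits precision.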
